A study of Mus musculus with 2 samples.

Results

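Vomeronasal receptor bins are the 50 kb bins of the mouse autosomes that overlap at least 1 gene of the Vmn1r or Vmn2r families and no olfactory receptor (Olfr) gene. By this rule 476 of the 49264 autosome bins were members, out of 54521 bins in all. They held 620 receptor genes, 372 Vmn1r and 248 Vmn2r, of which 353 are annotated as protein-coding and 267 as pseudogenes. Of the members, 203 held Vmn1r genes alone, 269 Vmn2r genes alone and 4 both, while 4 further bins were left out because they also held an Olfr gene. They lie on 14 chromosomes, with 208 on chromosome 7. Members separated by gaps of at most 1 Mb were joined into clusters. This gave 30 clusters of at least 2 bins, which held 460 members, and 16 members stood alone. The 18 clusters of at least 5 bins held 431 members and are named below by their first and last receptor gene.

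Contacts were measured by Foxa2 HiChIP, which joins proximity ligation of chromatin with immunoprecipitation by a Foxa2-specific rabbit antiserum. Foxa2 is a forkhead transcription factor that opens chromatin in liver. One library was made from liver of wildtype mice given GW4064, which activates the nuclear receptor FXR, a sensor of bile acids, by oral gavage. The other was made from liver of wildtype mice given the vehicle, propylene glycol with Tween 80, by gavage. Both were collected 4 h after a single gavage, from about 200 mg of liver per mouse. The GW4064 library held 29003442 contacts and the vehicle library 22686004. Each group was 1 library, so there was no replicate and no test of the treatment: every difference compares those libraries. Library and treatment cannot be told apart, nor, in bulk liver, can contacts in fewer cells from fewer contacts per cell. Intervals are exact 95% intervals, take the expected count as fixed and cover counting error only.

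Vomeronasal receptors are G protein-coupled receptors of sensory neurons in the vomeronasal organ, where they detect pheromones and other social cues. Vmn1r genes have a single coding exon and signal through Gnai2, whereas Vmn2r genes have several exons with a long extracellular ligand-binding domain and signal through Gnao1. A vomeronasal neuron expresses very few of these genes, and both families are regarded as silent in hepatocytes. The genes lie in tandem arrays of young duplicates, and many copies are nearly identical in sequence.

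Promoter sequences show how close these copies can be. RefSeq (GRCm38.p6, the assembly that mm10 names) held promoters, 250 bases before to 50 after the start site, for 321 of the 620 receptors, 206 Vmn1r and 115 Vmn2r. The first 4 below, 5′ to 3′, are from the most and the least covered bin with a promoter entry in each family, and all 4 genes are on the minus strand. Vmn1r27 (chr6:58215968-58216267) lies in the most covered such Vmn1r bin and Vmn1r138 (chr7:22028848-22029147) in the least covered. Vmn2r111 (chr17:22573224-22573523) and Vmn2r20 (chr6:123418012-123418311) have the same places among Vmn2r bins. Capitals would mark the forkhead-like words TGTTTAC and TATTTAC on either strand, and none of the 4 promoters holds one.
Vmn1r27: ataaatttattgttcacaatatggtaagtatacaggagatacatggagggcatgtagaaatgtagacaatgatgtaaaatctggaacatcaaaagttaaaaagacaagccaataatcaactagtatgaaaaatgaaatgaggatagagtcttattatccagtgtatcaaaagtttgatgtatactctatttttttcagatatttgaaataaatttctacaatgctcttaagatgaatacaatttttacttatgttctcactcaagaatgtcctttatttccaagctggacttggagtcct
Vmn1r138: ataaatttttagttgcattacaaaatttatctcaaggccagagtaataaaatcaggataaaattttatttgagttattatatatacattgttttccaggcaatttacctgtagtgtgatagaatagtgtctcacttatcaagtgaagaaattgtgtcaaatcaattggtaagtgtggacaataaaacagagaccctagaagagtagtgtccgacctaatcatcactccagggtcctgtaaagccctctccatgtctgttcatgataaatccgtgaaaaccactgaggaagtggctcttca
Vmn2r111: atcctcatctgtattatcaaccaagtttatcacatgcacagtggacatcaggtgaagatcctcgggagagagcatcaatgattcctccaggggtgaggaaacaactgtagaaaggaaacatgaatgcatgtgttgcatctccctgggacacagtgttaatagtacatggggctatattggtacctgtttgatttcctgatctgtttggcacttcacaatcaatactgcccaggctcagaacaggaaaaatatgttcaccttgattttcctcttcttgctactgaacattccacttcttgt
Vmn2r20: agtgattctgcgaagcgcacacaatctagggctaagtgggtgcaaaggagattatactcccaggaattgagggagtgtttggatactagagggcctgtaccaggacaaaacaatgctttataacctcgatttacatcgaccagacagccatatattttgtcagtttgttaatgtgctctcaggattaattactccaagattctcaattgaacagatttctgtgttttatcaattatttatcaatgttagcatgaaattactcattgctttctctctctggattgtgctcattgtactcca

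The promoter of Vmn1r138 is identical over all 300 bases to that of Vmn1r111, another receptor of chromosome 7. Among the closest pairs that are not identical, several of them at 1 base, is Vmn2r41 (chr7:8161502-8161801) with Vmn2r40 (chr7:8931353-8931652), both on the minus strand. Their promoters differ at 1 base, shown in capitals, and share 99.7% of bases. Both hold TATTTAC.
Vmn2r41: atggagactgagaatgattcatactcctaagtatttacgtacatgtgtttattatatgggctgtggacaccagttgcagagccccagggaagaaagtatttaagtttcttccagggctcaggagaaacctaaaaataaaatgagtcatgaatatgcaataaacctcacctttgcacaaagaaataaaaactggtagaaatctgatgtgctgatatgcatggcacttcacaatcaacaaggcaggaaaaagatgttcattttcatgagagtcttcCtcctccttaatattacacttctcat
Vmn2r40: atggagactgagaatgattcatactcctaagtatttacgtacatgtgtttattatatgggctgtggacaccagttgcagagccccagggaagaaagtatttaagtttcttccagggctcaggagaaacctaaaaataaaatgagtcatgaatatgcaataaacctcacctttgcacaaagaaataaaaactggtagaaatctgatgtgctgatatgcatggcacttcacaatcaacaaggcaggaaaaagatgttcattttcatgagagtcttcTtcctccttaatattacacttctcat

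TATTTAC stood in 26.7% of 116 Vmn2r promoter entries, 9.71% of 206 Vmn1r entries, 7.43% of 942 Olfr entries and 3.08% of all 31396 autosomal entries, counting both strands. Vmn2r29 has 2 of the Vmn2r entries. TGTTTAC, the common forkhead word, stood in 0.862% of Vmn2r, 5.83% of Vmn1r, 5.94% of Olfr and 3.71% of all entries. The palindromic Ebf motif, the core of sites bound by Ebf factors, stood in 0 Vmn1r, 0 Vmn2r, 5 Olfr and 289 of all entries. Mean GC content was 38.1% in Vmn2r, 35.6% in Vmn1r, 36.1% in Olfr and 54.0% in all entries, and the part of base composition and shared descent in these shares was not tested.

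Most vomeronasal bins were covered like other autosome bins, and a minority of them held very few contacts. The median member held 1033 contacts in GW4064 and 782 in vehicle, or 1.01 and 0.970 times the median of autosome bins with contacts, 1020 and 806. Under 50% of that median lay 112 members (23.5%) in GW4064, where 6.82% of all autosome bins did, and 122 (25.6%) in vehicle, where 4.38% did. Of 606 Olfr bins, also tandem arrays of receptor genes, 5 (0.825%) lay that low in each library. The low members were thus more frequent than in the background, in both libraries.

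Members with a Vmn1r gene alone had a median of 991 contacts in GW4064 and 759 in vehicle. Those with a Vmn2r gene alone had 1086 and 802. At least 200 contacts over both libraries were held by 421 members, and 55 held fewer. Of these, 10 held none in at least 1 library and 6 none in either. The first 200 kb of chromosome 7 (Vmn1r-ps88 to Vmn1r-ps91) and the first bin of chromosome 4 (Vmn2r122) account for 5 bins of 0, and both lie in the first 3 Mb of their chromosomes. The coordinates of these 7 genes may belong to sequence not placed on a chromosome. Their 0 contacts, which are in the counts of low members, therefore say nothing about these genes.

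The low members were concentrated in a few arrays. The cluster Vmn1r91 to Vmn1r183 (mm10 chr7:20100001-24100000) is the array with most receptors, 99 genes in 59 bins. Its bins held a median of 76 contacts in GW4064, with a range of 0 to 1217, and of 54 in vehicle, with a range of 0 to 938. These medians are 0.0745 and 0.0670 times the autosome median, and 32 of the 55 members under 200 contacts lie here. The all-pseudogene cluster Vmn2r-ps95 to Vmn2r-ps109 of chromosome 13 had medians of 378.5 and 284.5. The cluster Vmn2r-ps35 to Vmn1r-ps69 of chromosome 7, which holds 94 receptors in 75 bins, had medians of 732 and 570.

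At the other end, Vmn1r4 to Vmn1r-ps23 on chromosome 6 had medians of 1393 contacts in GW4064 and 1017 in vehicle, and Vmn2r90 to Vmn1r-ps150 on chromosome 17 had 1346 and 915. These arrays were covered above the autosome median in both libraries. The 3 members with most contacts all lie in Vmn2r-ps15 to Vmn2r-ps20 on chromosome 4, a run of pseudogenes. The bin of Vmn2r-ps19 held 3487 contacts in GW4064 and 2450 in vehicle. The bin of Vmn2r-ps16 held 3304 and 2382, and that of Vmn2r-ps20 held 2306 and 1724. The median bin of that same cluster held 560.5 and 375.5. Above 0, the fewest contacts were 0 in GW4064 and 1 in vehicle at Vmn1r132, 1 and 0 at Vmn1r-ps78 with Vmn1r138, and 2 and 0 at Vmn2r46.

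**Figure D1:**
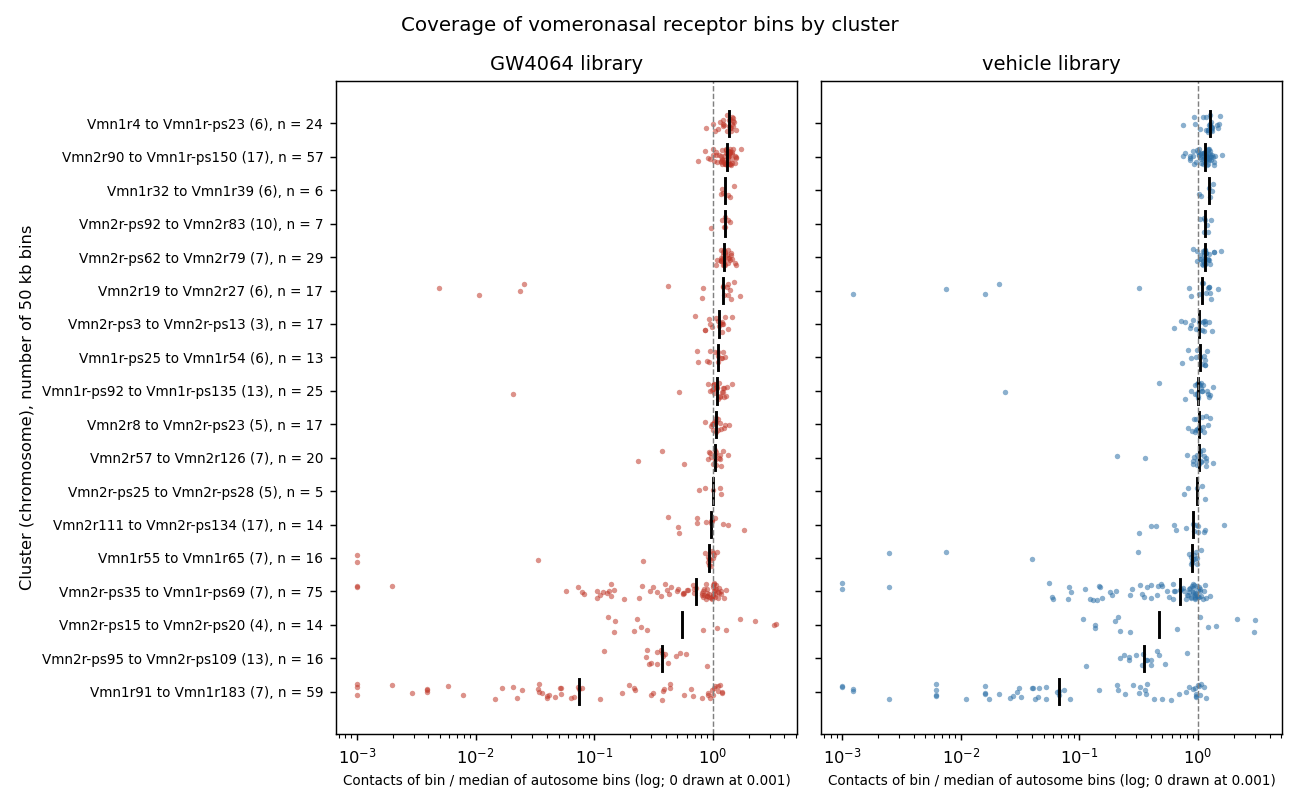
Contacts of each member bin (points) relative to the median autosome bin with contacts, on a log axis, for the 18 clusters of at least 5 bins, in GW4064 (left) and vehicle (right); black bars are cluster medians and the dashed line is 1. Vmn1r91 to Vmn1r183 has the lowest median in both libraries, 0.0745 in GW4064 and 0.0670 in vehicle, and the highest, Vmn1r4 to Vmn1r-ps23, has 1.37 and 1.26.

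Pooled over arrays, coverage was lowest in the bins of receptors whose promoter had a near-identical copy. Identity is the share of the 300 bases matched in the best alignment with another receptor of the family. Of the 321 receptors, 131 had a copy at 95% identity or more and 62 had one at 100%. Receptors under 80% identity, 92 in number, lay in bins with a median of 1195.5 contacts in GW4064 and 856.5 in vehicle, and 2 of their bins held under 200 contacts over both libraries. The medians were 1188 and 861 for 55 receptors at 80 to 90%, and 1214 and 853 for 43 at 90 to 95%. They were 1028 and 736.5 for 36 at 95 to 98%. For the 95 receptors at 98% or more they were 175 and 118, and 44 of these, all in Vmn1r91 to Vmn1r183, lay in bins under 200 contacts. The step thus lay at the top of the identity scale, in both libraries.

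Much of this contrast came from that array. Among its 83 receptors with a promoter entry, median identity was 100% and 75 reached 95%. Without it, 27 receptors at 98% or more lay in bins with medians of 707 in GW4064 and 506 in vehicle, 0 of them in a bin under 200 contacts, against 1195.5 and 856.5 for the 86 under 80%. Across the 321 receptors, identity and contacts over both libraries had a Spearman rho of -0.62 and a Pearson r of -0.53. Over the 238 receptors outside that array the values were -0.30 and -0.28. Receptors share bins, ancestors and libraries, so these are descriptions. Exceptions stand on both sides. All 7 receptors of Vmn2r111 to Vmn2r-ps134 with a promoter entry had 97.0 to 99.3% identity. The bins of that array had medians of 983 contacts in GW4064 and 733 in vehicle. Its Vmn2r111, at 98.3% identity with Vmn2r112, lay in a bin of 1855 and 1333, whereas Vmn1r62, at 64.7%, lay in one of 34 and 32. How reads that match several copies were treated is not given in the sources used here, and its part in these counts was not tested.

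**Figure D2:**
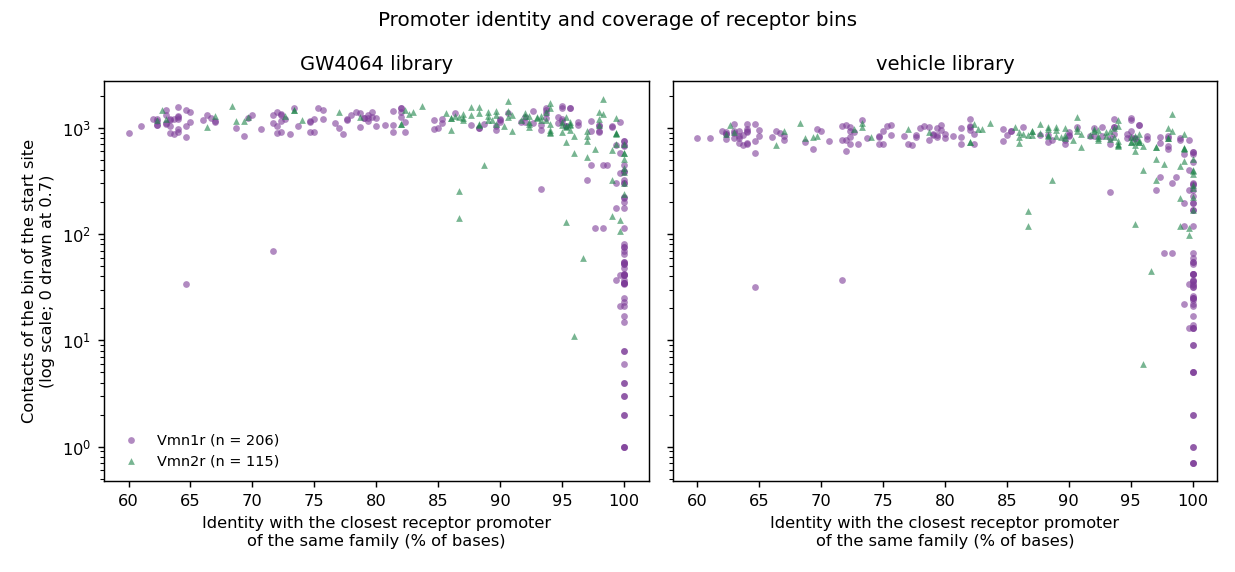
Contacts of the bin of each receptor's start site (log axis) against the identity of its promoter with the closest other promoter of the family, for 206 Vmn1r (circles) and 115 Vmn2r receptors (triangles), in GW4064 (left) and vehicle (right). Medians are 1195.5 in GW4064 and 856.5 in vehicle under 80% identity, and 175 and 118 at 98% or more, where 44 of 95 receptors, all of the array Vmn1r91 to Vmn1r183, lie in bins under 200 contacts.

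Relative to vehicle, the GW4064 library held slightly more contacts in vomeronasal bins than in the average autosome bin. With both libraries scaled to their autosomal totals, the median log2 ratio of GW4064 over vehicle was 0.09 over the 421 members with at least 200 contacts, and 345 of them lay above 0. The median of all 47710 such autosome bins was -0.01, and that of bins in the same coverage strata -0.06. It was 0.12 for Vmn2r bins and 0.07 for Vmn1r bins. Medians were 0.11 in 605 Olfr bins and 0.15 in 4113 bins of gene deserts, stretches of at least 2 Mb with no protein-coding gene. Gene-rich bins, with at least 15 protein-coding genes in the surrounding 21 bins, had a median of -0.27.

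At 1.5-fold with an interval excluding no difference, 1 member was higher in GW4064, where 0.0545% of autosome bins were, and 0 were lower, where 1.51% were. The higher bin holds the pseudogene Vmn1r-ps137 (mm10 chr16:3050001-3100000), with 148 contacts in GW4064 and 76 in vehicle, a log2 ratio of 0.61 (0.20 to 1.03). Of its contacts, 121 in GW4064 and 58 in vehicle were with other autosomes. Counting intervals alone, 142 members (33.7%) lay above 0, against 20.9% of autosome bins, and 12 (2.85%) below, against 29.8%. Larger shares lay above 0 in Olfr bins, 41.3% with 6.78% below, and in gene deserts, 64.0% with 1.53% below. The members thus leaned towards GW4064, nearly all by less than 1.5-fold.

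The next highest ratios were at Vmn2r-ps129, with 426 contacts in GW4064 and 256 in vehicle and a log2 ratio of 0.38 (0.16 to 0.61), and at Vmn2r22, with 424 and 256 and 0.38 (0.15 to 0.60). Lowest was Vmn2r-ps59, with 585 contacts in GW4064 and 645 in vehicle, a log2 ratio of -0.49 (-0.66 to -0.33). Vmn1r119 with Vmn1r-ps73, in the sparse array of chromosome 7, held 219 and 226, which gives -0.40 (-0.67 to -0.12). Vmn1r-ps1, a single pseudogene on chromosome 2, held 716 and 706, which gives -0.33 (-0.48 to -0.18). Both families and both pseudogenes and intact genes occur at each end of the range.

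Contacts within clusters were pooled over arrays, among bins with at least 200 contacts. At 100 to 200 kb they were less frequent than between other bins of like coverage, and over 500 kb more frequent, in both libraries. Observed counts were divided by those expected from all autosome pairs of the same distance whose bins fell in the same of 20 coverage strata. Over all member pairs of a cluster the ratio was 0.968 in GW4064 (37346 contacts, 0.958 to 0.978) and 0.944 in vehicle (23781 contacts, 0.932 to 0.956). Bins under 200 contacts share the lowest stratum with better covered bins. Without them it was 1.01 (1.00 to 1.02) in GW4064 and 1.00 (0.992 to 1.02) in vehicle.

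Among pairs with at least 200 contacts at both bins, neighbouring bins had ratios of 0.982 in GW4064 and 1.01 in vehicle. At 100 to 200 kb they were 0.945 (0.926 to 0.964) and 0.888 (0.865 to 0.912), the lowest of any distance. With all bins they were 0.897 and 0.834 there. At 250 to 500 kb they were 1.00 (0.977 to 1.03) and 0.977 (0.946 to 1.01). They were 1.21 and 1.23 at 550 to 1000 kb, 1.20 and 1.17 at 1 to 2 Mb, and 1.46 (1.36 to 1.57) and 1.40 (1.28 to 1.52) beyond 2 Mb. Longer distances come only from longer arrays. By span, pairs beyond 2 Mb can come only from Vmn2r-ps35 to Vmn1r-ps69, Vmn1r91 to Vmn1r183, Vmn2r-ps62 to Vmn2r79 and Vmn2r90 to Vmn1r-ps150. All but the last of these arrays are on chromosome 7. Both libraries had intervals above 1 at each distance over 500 kb. GW4064 over vehicle, the ratio was 1.01 (0.993 to 1.03) for these bins. With all bins it was 1.03 (1.01 to 1.04), and with an expectation from the product of coverages 0.959 (0.944 to 0.975), so its direction depends on the expectation.

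The arrays differed among themselves. Vmn2r90 to Vmn1r-ps150, with 57 bins over 3.65 Mb, had a ratio of 1.01 in GW4064 and 1.03 in vehicle. Vmn1r91 to Vmn1r183 had 0.890 and 0.776 for bins with at least 200 contacts. For Vmn2r-ps15 to Vmn2r-ps20 the ratios were 1.58 (1.47 to 1.70) and 1.24 (1.12 to 1.36), but 0.922 and 0.859 with the product of coverages. Those of Vmn2r-ps95 to Vmn2r-ps109 were 0.637 and 0.470, but 1.45 in GW4064 with the product of coverages and 1.44 in vehicle with coverage in 60 strata. Both pseudogene arrays thus changed side with the expectation. The 5 pairs with the highest ratio all join Vmn2r-ps16 or Vmn2r-ps18 to Vmn2r-ps19 or Vmn2r-ps20, and each includes at least 1 of the 3 best covered members. The top pair, Vmn2r-ps16 with Vmn2r-ps19 at 950 kb, held 47 contacts in GW4064 and 30 in vehicle against 4.45 and 2.70 expected. The treatment of reads that match several copies is not given. Its part in contacts between receptor bins, within clusters, between them and in trans, was not tested. Of 2367 member pairs with at least 5 expected contacts, 79 (3.34%) reached 2-fold, below the 5.95% of all such autosome pairs.

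Pooled over autosomes, vomeronasal clusters on the same chromosome met more often than other bins matched on distance and coverage, above all on chromosome 7. Between clusters the ratio of observed over expected was 1.78 in GW4064 (3410 contacts, 1.73 to 1.85) and 1.5 in vehicle (2252 contacts, 1.43 to 1.56). Without chromosome 7 it was 1.27 (1.18 to 1.35) and 1.19 (1.10 to 1.30). Against bins matched on distance alone, the ratio was 1.21 in GW4064 and 1.00 (0.960 to 1.04) in vehicle. At 1 to 5 Mb the ratios were 1.23 and 0.994, and at 20 to 50 Mb they were 2.11 and 2.02. Both libraries had their lowest ratio between clusters at 1 to 5 Mb. On chromosome 6 the ratio with the other clusters of that chromosome was 0.959 in GW4064 and 0.949 in vehicle for Vmn1r4 to Vmn1r-ps23. It was 0.727 and 0.788 for Vmn1r-ps25 to Vmn1r54, and 1.11 and 1.15 for Vmn1r32 to Vmn1r39. For Vmn2r19 to Vmn2r27 it was 1.24 and 1.07, and for Vmn1r-ps5 to Vmn1r261, of 2 bins, 2.41 and 2.22. The excess was thus not that of every array.

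GW4064 over vehicle, the ratio between clusters in cis was 1.19 (1.13 to 1.26). It was 1.06 (0.953 to 1.18) without chromosome 7 and 1.05 (0.997 to 1.11) with the product of coverages, intervals that include 1. Of 24 cluster pairs in cis with at least 10 expected contacts, 19 lay above 1, with a median of 1.37. Highest was Vmn2r-ps35 to Vmn1r-ps69 with Vmn2r57 to Vmn2r126, 28.1 Mb apart on chromosome 7. It held 435 contacts in GW4064 and 340 in vehicle, 3.45 (3.14 to 3.79) and 3.34 (3.00 to 3.72) times the expected count. Vmn1r55 to Vmn1r65 with that same Vmn2r57 array had 3.07 and 2.53, and Vmn2r90 to Vmn1r-ps150 with Vmn2r118 on chromosome 17 had 2.31 and 2.90.

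Lowest were Vmn1r91 to Vmn1r183 with Vmn1r-ps86 to Vmn1r185, at 0.655 in GW4064 and 0.334 in vehicle, and 2 pairs of chromosome 6. There Vmn1r-ps25 to Vmn1r54 met Vmn1r4 to Vmn1r-ps23 at 0.494 (0.320 to 0.729) and 0.706 (0.461 to 1.03), and Vmn1r32 to Vmn1r39 at 0.553 (0.253 to 1.05) and 0.838 (0.402 to 1.54).

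Between chromosomes, pairs of vomeronasal bins held more contacts than pairs matched on their trans contacts. The ratio was 1.6 in GW4064 (562 contacts, 1.47 to 1.74) and 1.46 in vehicle (424 contacts, 1.33 to 1.61). GW4064 over vehicle it was 1.10 (0.965 to 1.2), an interval that includes 1. Pairs of Vmn1r bins had 1.95 and 1.64, pairs of Vmn2r bins 1.71 and 1.70, and mixed pairs 1.41 and 1.23. Of 82417 pairs, 541 held a contact in GW4064 and 416 in vehicle, nearly all of them 1 contact.

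Position along the chromosome moved with this ratio. For the 1038 pairs with both bins in the first 15 Mb of their chromosomes it was 7.29 (5.16 to 10) in GW4064 and 6.54 (4.31 to 9.52) in vehicle. With neither bin there it was 1.41 (1.26 to 1.57) and 1.31 (1.16 to 1.49). Mouse chromosomes have the centromere at this end, and 48 pairs within the first 5 Mb held 17 and 8 contacts where 0.338 and 0.240 were expected. The expected counts were not matched on position, and other autosome bins in these stretches were not measured. These values are therefore not shown to be particular to vomeronasal bins. The pairs with most contacts include Vmn1r-ps6 with Vmn1r261 on chromosome 6 and Vmn1r-ps60 with Vmn1r77 on chromosome 7, which shared 5 contacts in GW4064 and 3 in vehicle.

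**Figure D3:**
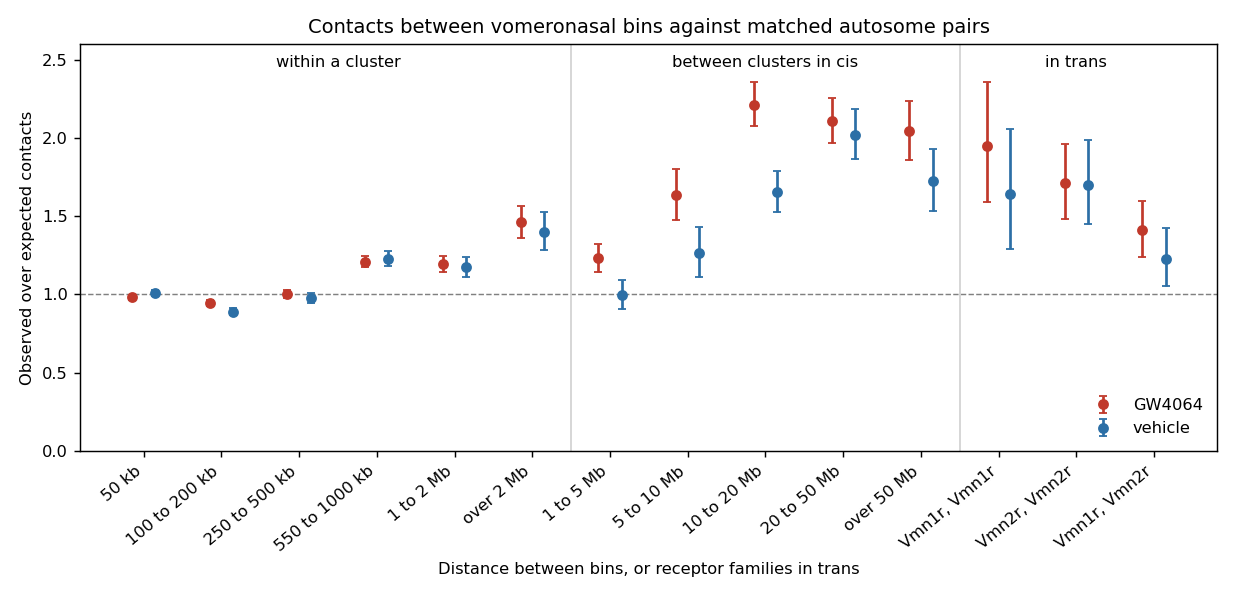
Observed over expected contacts (points) with 95% counting intervals (bars) between vomeronasal bins, by distance within a cluster (bins with at least 200 contacts) and between clusters in cis, and by family in trans, for GW4064 (left point) and vehicle (right point); the dashed line is 1. Values at 100 to 200 kb lie below 1, at 0.945 in GW4064 and 0.888 in vehicle. Those over 500 kb and in trans lie above 1, except between clusters 1 to 5 Mb apart in vehicle, at 0.994. Longer distances within a cluster come only from the longer arrays.

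Of 9 cluster pairs in trans with at least 10 expected contacts, 8 lay above 1. The array Vmn2r90 to Vmn1r-ps150 of chromosome 17 is in each of the 3 highest, all with arrays of chromosome 7. With Vmn2r-ps35 to Vmn1r-ps69 it had a ratio of 2.74 (2.03 to 3.62) in GW4064 and 2.69 (1.92 to 3.67) in vehicle. With Vmn2r57 to Vmn2r126 it had 2.81 and 2.30, and with Vmn1r91 to Vmn1r183 it had 2.67 and 1.86. The same array had 1.08 (0.467 to 2.13) and 0.710 (0.194 to 1.82) with Vmn1r4 to Vmn1r-ps23 and 1.42 (0.615 to 2.81) and 0.900 (0.245 to 2.31) with Vmn2r8 to Vmn2r-ps23, the lowest of the 9 over both libraries, with intervals that include 1. The next lowest was Vmn1r4 to Vmn1r-ps23 with Vmn2r-ps35 to Vmn1r-ps69, with 4 contacts in GW4064 and 12 in vehicle, or 0.591 (0.161 to 1.51) and 2.18 (1.13 to 3.81).

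In trans, vomeronasal bins met gene deserts and Olfr bins more often, and gene-rich bins less often, than matched pairs. With gene deserts the ratio was 1.38 (1.36 to 1.41) in GW4064 and 1.29 (1.26 to 1.32) in vehicle. It was 1.32 and 1.33 with Olfr bins, and 0.698 and 0.721 with gene-rich bins. Olfr bins had like values, 1.35 and 1.29 with gene deserts and 0.771 and 0.808 with gene-rich bins, and gene deserts met each other at 1.71 and 1.68. Among themselves, over all pairs, vomeronasal bins thus lay between Olfr bins, at 1.2 and 1.2 with each other, and gene deserts. The GW4064 interval, 1.47 to 1.74, includes the gene desert value. With neither bin in the first 15 Mb, vomeronasal bins had 1.41 (1.26 to 1.57) in GW4064 and 1.31 (1.16 to 1.49) in vehicle. These intervals overlap those of Olfr bins at all positions, 1.14 to 1.29 and 1.17 to 1.34.

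The arrays differed in how far they followed this pattern. Vmn2r-ps62 to Vmn2r79 had 1.89 in GW4064 and 1.70 in vehicle with gene deserts and 0.466 and 0.518 with gene-rich bins, and Vmn2r90 to Vmn1r-ps150 had 1.87 and 1.77 against 0.509 and 0.558. Vmn1r-ps25 to Vmn1r54 went the other way, with 0.767 (0.664 to 0.881) and 0.667 (0.562 to 0.786) with gene deserts and 1.29 (1.19 to 1.39) and 1.26 (1.17 to 1.35) with gene-rich bins. With the other clusters of chromosome 6 this array had a ratio in cis of 0.727 (0.566 to 0.92) in GW4064. In vehicle it was 0.788 (0.593 to 1.025), an interval that includes 1. A link between its partners in cis and in trans was not tested. Vmn2r-ps25 to Vmn2r-ps28 of chromosome 5 had 0.799 and 0.652 with gene deserts and 1.30 and 1.45 with gene-rich bins. Vmn2r-ps92 to Vmn2r83 of chromosome 10 had 0.777 and 0.893, and 1.14 and 1.13. Vmn2r8 to Vmn2r-ps23 of chromosome 5 had 1.04 (0.930 to 1.16) and 0.980 (0.861 to 1.11) with gene deserts and 1.11 (1.03 to 1.19) and 1.14 (1.06 to 1.23) with gene-rich bins. Vmn1r91 to Vmn1r183, whose bins mostly lie in the lowest stratum, was below 1 with both, at 0.875 and 0.770 and at 0.424 and 0.424.

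**Figure D4:**
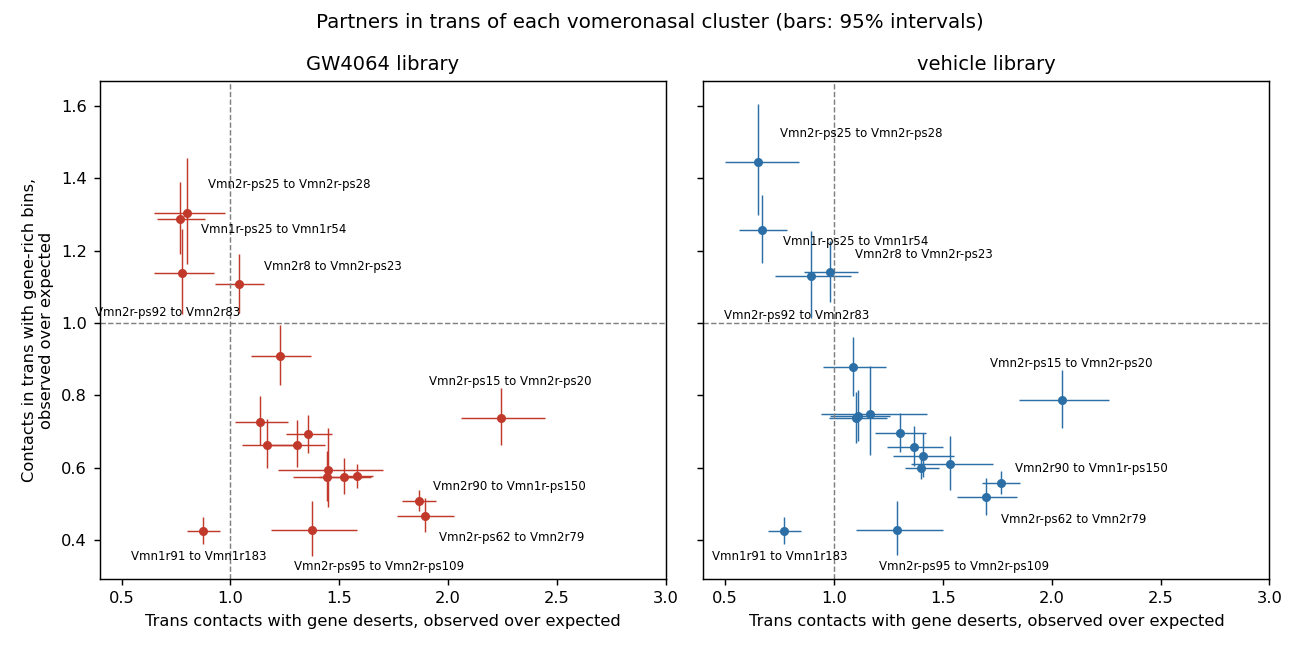
Observed over expected contacts in trans with gene-rich bins (vertical axis) against those with gene deserts (horizontal axis) for the 18 clusters of at least 5 bins, in GW4064 (left) and vehicle (right), with 95% counting intervals and dashed lines at 1. Most clusters lie at the lower right, and Vmn1r-ps25 to Vmn1r54 and Vmn2r-ps25 to Vmn2r-ps28 lie at the upper left in both libraries.

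Pooled over clusters, contacts across the edges of the arrays were fewer, relative to expected, than within or beside them. For pairs up to 1 Mb apart and bins with at least 200 contacts, the ratio was 0.992 in GW4064 and 0.975 in vehicle with both bins inside the span of a cluster. It was 0.844 (0.832 to 0.857) and 0.831 (0.816 to 0.845) with 1 bin inside and 1 in the flanking 1 Mb, and 1.07 and 1.09 with both in the same flank. The order was not that of every array. With all bins, the ratio across the edge was below that inside the array in 13 of the 18 clusters in GW4064 and 11 in vehicle. In Vmn1r91 to Vmn1r183 it was 0.644 and 0.512 across the edge and 0.469 and 0.398 inside, and in Vmn2r-ps35 to Vmn1r-ps69 it was 0.925 and 0.885 across and 0.838 and 0.832 inside. Over all contacts of members, those with other autosomes made up 20.3% in GW4064 and 24.4% in vehicle, against 19.8% and 24.5% in bins of the same coverage strata. Local contacts, to bins at most 1 Mb away, made up 24.8% and 22.0%, against 27.6% and 24.4%. Members thus held a smaller share of local contacts than matched bins, while their trans share lay within 1 percentage point of the matched value. Olfr bins were also below their matched bins in local contacts, at 26.0% in GW4064 and 23.1% in vehicle against 27.8% and 24.7%. Contacts inside a bin, not counted as local, made up 16.7% and 14.9% in members, against 15.9% and 14.5%.

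Genes that work with the receptors were examined as 4 lists, and the genes named from them were chosen after their values were seen. Background for single protein-coding loci, which overlap all bins of the gene, was a median log2 ratio of -0.19, with 62.7% of 20381 loci having an interval below 0 and 9.01% above. At 1.5-fold, 5.9% were lower and 0.0147% higher. Of 12 transduction genes, 11 had an interval below 0 and 2 were lower at 1.5-fold, with a median of -0.46. Gnai2, the G protein of Vmn1r neurons, held 467 contacts in GW4064 and 596 in vehicle, a log2 ratio of -0.70 (-0.88 to -0.53). Omp, a marker of mature olfactory and vomeronasal neurons, held 489 and 596, or -0.64 (-0.81 to -0.46). Trpc2, the transduction channel of these neurons, held 817 and 847, or -0.40 (-0.54 to -0.26), and Gnao1, the G protein of Vmn2r neurons, held 2959 and 2775, or -0.26 (-0.33 to -0.18). The surrounding 21 bins held 40 protein-coding genes at Gnai2, 32 at Trpc2 and 14 at both Omp and Gnao1, and the part of gene density in these ratios was not tested.

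Of 59 tested loci of pheromone ligands, pseudogenes included, 20 had an interval above 0 and 2 below, with a median of 0.15. All 15 loci of exocrine gland-secreted peptides (Esp), which lie in one region of chromosome 17 and in part share bins, had an interval above 0, with log2 ratios of 0.16 to 0.32. Of 44 loci of major urinary proteins (Mup), 5 lay above, 2 below and 37 included 0, with log2 ratios of -0.46 to 0.38. Mup loci also share bins in part, and many hold few contacts and have wide intervals. Mup10, for example, held 149 and 100, or 0.22 (-0.15 to 0.60). The counts of intervals for Esp and Mup are therefore not directly comparable. Of 17 other receptors and MHC partners, 5 had one above and 3 below, with a median of -0.01. Fpr-rs6, a formyl peptide receptor used by vomeronasal neurons, held 1383 contacts in GW4064 and 913 in vehicle, or 0.25 (0.13 to 0.37), but its bin is itself the member bin of Vmn1r-ps140. All Fpr loci of the list lie in the span of Vmn2r90 to Vmn1r-ps150. Fpr-rs4, at 1766 and 1272, and Fpr-rs7, at 1405 and 947, were also above 0 and have the counts of member bins. These loci are thus not separate from the members. Of 12 regulators, 8 had an interval below 0 and 1 above, with a median of -0.20, near that of all loci. Among them Ldb1, which joins enhancers of olfactory receptor genes between chromosomes in olfactory neurons, was lower at 472 and 557, or -0.59 (-0.77 to -0.41).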

How the data were processed

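Foxa2 HiChIP libraries of wildtype mouse liver were compared, 1 from GW4064 and 1 from vehicle treatment. Per the submitters' processing notes, HiC-Pro and Bowtie2 2.2.9 were used on mm10. The version of HiC-Pro is not given in the sources used here, nor are read filters, duplicate removal, the treatment of reads that match several places, or whether animals were pooled. The deposited matrices hold raw contact counts per pair of 50 kb bins, not normalized by the authors. The deposited bin tables hold a bin index, of no other unit, identical for both libraries.

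Receptor genes came from RefSeq (GRCm38.p6). Coverage is all contacts of a bin, a contact within a bin counted once. Expected contacts are means over all autosome pairs of the same distance class and pair of coverage strata (20 strata of 47961 bins with contacts in both libraries), and in trans of strata of trans contacts. Ratios between libraries were scaled to autosomal totals (1.28), and given for bins holding 200 contacts or more in the libraries together. Intervals are exact: Poisson for counts, Clopper-Pearson for shares and conditional binomial for ratios. The method was tested on contacts simulated from products of bin totals. Pooled over clusters, a planted excess of 1.5 within clusters came back as 1.30. Planted excesses of 2.0 came back as 1.54 between clusters in cis and 1.73 in trans. In the data, ratios of single arrays moved either way with the expectation, so an excess need not be an underestimate.

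Named items follow a rule: clusters of at least 5 bins, the 3 highest and 3 lowest bins by ratio and by contacts, the 5 highest pairs, and the 3 highest and lowest cluster pairs. For the fewest contacts, bins above 0 are named as well. Identity was planned on proteins and was computed on promoters instead, since no protein sequences were at hand, by global alignment with Biopython 1.88. The members, lists and rule were chosen with earlier results of these data known. Alternatives were other strata, expectations, scalings, contact minimums, cluster gaps and sets of bins. The scripts ran in Python 3.11.15 with scipy 1.17.1, numpy 2.4.6 and pandas 2.3.3.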

Additional observations from a re-analysis of the deposited data

Results flagged for a closer look

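Vomeronasal receptor genes of the sex chromosomes were outside every comparison, and their summed contacts lay above the limit of 3 that a count of 0 allows. On chromosome X, 2 bins held 1250 contacts in GW4064 and 849 in vehicle. On chromosome Y, 12 bins held 1503 in GW4064 and 1129 in vehicle. Most of these lay in 3 bins, which held 452, 374 and 406 in GW4064 and 321, 266 and 305 in vehicle, and the bin of Vmn2r-ps150 with Vmn2r-ps151 held 3 in GW4064 and 0 in vehicle.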

How the results depend on the processing

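With 1 library per group, alternatives were judged by whether a value left its own 95% counting interval, or, for a count, moved by over 1.5 times. Of 138 recomputed summary values, 73 did neither, 60 moved and 5 changed side of no difference; of 525 values for single clusters, 394, 114 and 17 did. No paired analysis was possible because each group has 1 library. The ratio in trans stayed above 1 in both libraries under each of 11 alternatives, at 1.41 to 1.71 in GW4064 and 1.31 to 1.59 in vehicle. That between clusters in cis spanned 1.21 to 2.13 in GW4064 and 1.00 to 1.96 in vehicle under 12. With coverage in 10 strata, contacts within clusters gave 0.938 in GW4064 and 0.897 in vehicle and 1.04 for their ratio, and contacts between clusters in cis gave 1.67 in GW4064 and 1.36 in vehicle. With distance alone, contacts within clusters gave 0.923 in GW4064 and 0.829 in vehicle and 1.11 for their ratio, and contacts between clusters in cis gave 1.21 in GW4064 and 1.00 in vehicle. With the product of coverages, contacts within clusters gave 1.00 in vehicle and 0.959 for their ratio, and contacts between clusters in cis gave 2.06 in GW4064 and 1.96 in vehicle and 1.05 for their ratio. With strata of coverage and gene density, contacts within clusters gave 0.957 in GW4064 and 0.928 in vehicle, and contacts between clusters in cis gave 1.70 in GW4064. Without bins under 200 contacts, contacts within clusters gave 1.01 in GW4064 and 1.00 in vehicle, and contacts between clusters in cis gave 2.03 in GW4064 and 1.82 in vehicle and 1.11 for their ratio. With gaps of at most 500 kb, contacts between clusters in cis gave 1.71 in GW4064 and 1.43 in vehicle. With gaps of at most 2 Mb, contacts between clusters in cis gave 2.00 in GW4064 and 1.66 in vehicle. Without chromosome 7, contacts within clusters gave 1.01 in GW4064 and 0.994 in vehicle, and contacts between clusters in cis gave 1.27 in GW4064 and 1.19 in vehicle and 1.06 for their ratio. For pairs at least 100 kb apart, contacts within clusters gave 0.978 in GW4064 and 0.926 in vehicle and 1.06 for their ratio. With coverage in 60 strata, contacts within clusters gave 1.01 in GW4064 and 1.01 in vehicle and 0.998 for their ratio, and contacts between clusters in cis gave 1.90 in GW4064 and 1.73 in vehicle and 1.10 for their ratio. With receptor genes not counted in gene density, contacts within clusters gave 0.983 in GW4064 and 0.969 in vehicle, and contacts between clusters in cis gave 1.58 in vehicle and 1.12 for their ratio. Without cluster pairs under 10 Mb apart, contacts between clusters in cis gave 2.13 in GW4064 and 1.80 in vehicle. Without bins in the first 15 Mb, contacts in trans gave 1.41 in GW4064 and 1.31 in vehicle. The GW4064 value without bins under 200 contacts, both values with 60 strata and the ratio of 0.959 lie on the other side of 1; the cause was not tested.

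Relative to the autosome median, coverage was 0.995 in GW4064 and 0.910 in vehicle for contacts between autosomes, and 0.995 and 0.961 without contacts inside a bin. The median log2 ratio of GW4064 over vehicle was 0.11 scaled to the median bin, 0.12 for local contacts, 0.13 for trans contacts and 0.0722 as the difference from bins of like coverage and gene density. Higher members numbered 0 with at least 500 contacts and 5 at the lower fold tried (0.558% of autosome bins), where 3 were lower (11.4%). For trans contacts 2 of 368 members were higher, where 0.269% of bins in the same strata were. In that difference from like bins 11 were higher. The share of all autosome bins was not computed there, so that count cannot be read as an excess. The trans share over that of matched bins was 1.03 in GW4064 and 0.994 in vehicle, 0.981 and 0.947 with gene density added to the strata, and 1.01 in GW4064 with receptor genes not counted.

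Single clusters changed side as follows. With distance alone, Vmn2r111 to Vmn2r-ps134 gave 0.863 in GW4064 and 0.840 in vehicle, Vmn1r4 to Vmn1r-ps23 gave 1.36 and 1.32, Vmn1r32 to Vmn1r39 gave 1.12 in GW4064 and Vmn2r-ps15 to Vmn2r-ps20 gave 0.779 in vehicle. With the product of coverages, Vmn2r-ps15 to Vmn2r-ps20 gave 0.922 and 0.859, Vmn2r-ps35 to Vmn1r-ps69 gave 1.16 and 1.15, and in GW4064 Vmn2r-ps95 to Vmn2r-ps109 gave 1.45, Vmn1r55 to Vmn1r65 gave 1.09 and Vmn2r-ps62 to Vmn2r79 gave 0.939. With 60 strata, Vmn2r-ps95 to Vmn2r-ps109 gave 1.44 in vehicle and 0.701 for the ratio of libraries, and Vmn2r-ps35 to Vmn1r-ps69 gave 1.04 in vehicle, and 1.056 with receptor genes not counted in gene density. Alternatives added after seeing the data were the 60 strata, the density without receptor genes, the difference from like bins, and the sets without pairs under 10 Mb apart, without the first 15 Mb, without pairs of 5 or more contacts and without vomeronasal pairs in the expectation. Depth limits pairs in trans, where nearly every pair held at most 1 contact.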
